A study of Homo sapiens with 6 samples.

Results

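The G1 cyclins, their partner kinases CDK4 and CDK6, and the CDK inhibitors were described in SK-BR-3, a HER2-overexpressing line established from a breast cancer. The genes were taken by symbol: the D-type cyclins CCND1, CCND2 and CCND3, the kinases CDK4 and CDK6, the E-type cyclins CCNE1 and CCNE2, and the inhibitors CDKN1A, CDKN1B and CDKN2C. Of these 10 genes, 9 were analysed among the 30327 genes of the count table, and CCND2 was not analysed here. Poly(A) RNA was sequenced from 3 si_NC libraries, from cells transfected with a siRNA that has no target, and 3 si_GRB2 libraries, from cells transfected with a siRNA against GRB2, the adaptor protein that links HER2 and other receptor tyrosine kinases to RAS. The descriptions of the treated libraries name si_GRB2, while their titles and genotype entries name GRB2 overexpression. The methods of the study name 1 siRNA against GRB2 and give no time of harvest for sequencing. The model is a single cell line, and nothing says that the 3 samples of a group were separate cultures, so p-values measure the spread between these samples.

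Cyclin D binds CDK4 or CDK6 and phosphorylates the retinoblastoma protein, which releases E2F factors and lets the genes of S phase be transcribed. Cyclin E with CDK2 completes that step. CDKN2C (p18, INK4 family) blocks CDK4 and CDK6, while CDKN1A (p21) and CDKN1B (p27) block CDK2 complexes and also take part in assembling cyclin D with CDK4. Transcription of cyclin D1 is a known endpoint of mitogenic signalling from HER2 through RAS and ERK.

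GRB2 itself was examined first. It had 3474, 3301 and 3525 reads in the si_NC libraries and 699, 773 and 749 reads in the libraries labelled si_GRB2. Its level fell by 77.4% in si_GRB2 (log2 fold change −2.15, SE 0.04, edgeR, adjusted p = 3.87e-15), which goes against the titles and matches the descriptions. Reads counted on genes ranged from 24810378 to 28532480 per library. Mitochondrially encoded genes took 8.66% to 9.02% of the reads in si_NC and 7.59% to 7.80% in si_GRB2. Levels are in CPM, reads scaled to a common library size. TMM factors were applied except in the sums of markers given here, which used unadjusted totals. Luminal epithelial markers were high, with a summed level of 19900 to 20300 CPM in si_NC and 17200 to 17800 CPM in si_GRB2. Of the 8 luminal markers tested, 6 fell (75.0%) and 1, ERBB2, rose (12.5%), at an adjusted p under 0.01 in edgeR. Of all tested genes, 10.5% fell and 9.96% rose at that limit. CDH1 had too few reads to test (9 over all libraries). Of the 4 leukocyte markers, PTPRC had 2 reads over all libraries, and the list summed to at most 1.16 CPM in either group. Fibroblast markers summed to 4.0 to 6.16 CPM in si_NC and 4.64 to 5.30 CPM in si_GRB2. Endothelial markers summed to 28.6 to 30.4 CPM in si_NC and 17.7 to 21.8 CPM in si_GRB2, nearly all from CDH5, with 3 reads for PECAM1. Basal markers summed to 16.7 to 17.6 CPM in si_NC and 8.63 to 9.24 CPM in si_GRB2, nearly all from KRT5, with 25 reads for KRT14 and 19 for TP63. Hormone receptors stayed at or below 1.53 CPM. The part of these shifts in the results below was not tested.

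CCND1 and CDKN1A, a cyclin and a CDK inhibitor, fell after GRB2 siRNA, and CDK6 and CDKN1B, a kinase and a CDK inhibitor, rose by less. The other 5 genes did not pass the test. A gene passed with an adjusted p under 0.01 in edgeR's quasi-likelihood test over 15801 genes, and it was a differentially expressed gene (DEG) if its fold change was also above 1.5 or at most the inverse of that. Thus 2 of 9 genes rose and 2 of 9 fell (22.2% each), against 9.96% of all tested genes that rose, 10.5% that fell and 20.5% that did either. Both genes that fell were DEGs, whereas 1.69% of all tested genes were DEGs lower in si_GRB2, 0.829% were DEGs higher in si_GRB2 and 2.52% were DEGs of either direction. The fall of CCND1 was known when the genes were chosen, so these shares are no test of the set. The values of the groups did not overlap for 8 of the 9 genes, 6 lower and 2 higher in si_GRB2, and for 42.3% of all tested genes, 21.2% lower and 21.1% higher. The median log2 fold change was −0.10 over the 9 genes and 0.0019 over all tested genes. The log2 fold changes ran from −0.85 for CCND1 to 0.24 for CDK6. In these bulk libraries, fewer cells of a kind and less RNA per cell cannot be told apart. Protein levels of the cyclins and inhibitors were not analysed here.

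**Figure D1:**
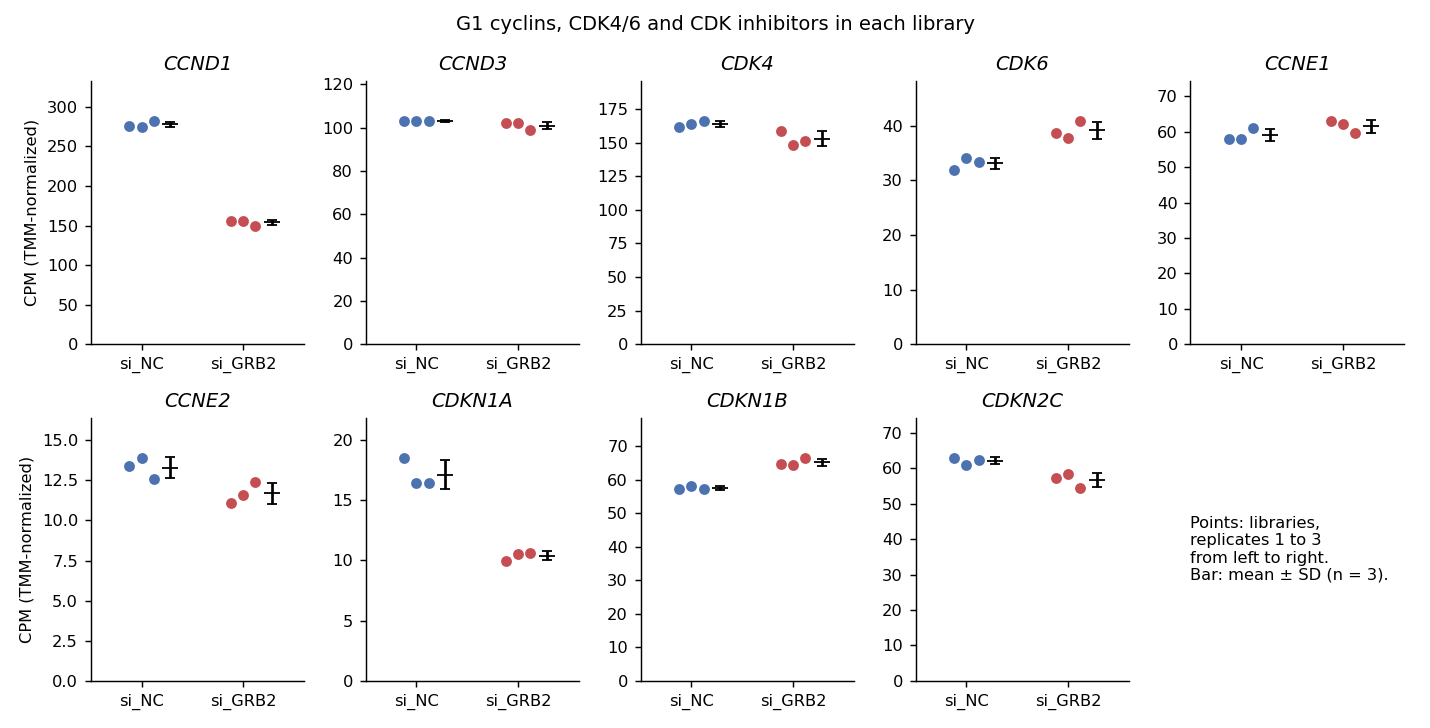
TMM-normalized CPM (y axis, from 0) of the 9 genes in each library (points, 3 si_NC in blue and 3 si_GRB2 in red), with mean and SD. CCND1 and CDKN1A stand well below si_NC in every si_GRB2 library, CDK6 and CDKN1B stand above, and only CCNE1 overlaps between the groups.

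CCND1 encodes cyclin D1. It lies on the plus strand of chromosome 11 (GRCh38, chr11:69641156-69654474, ENSG00000110092.4). Its level was 276, 275 and 282 CPM with si_NC and 156, 156 and 150.1 CPM with si_GRB2. The lowest si_NC library stood 119 CPM above the highest si_GRB2 library, while the SD within groups was 3.59 and 3.67 CPM. The mean was 278 CPM in si_NC and 154 CPM in si_GRB2 (n = 3 each). It decreased by 44.4%, with a log2 fold change of −0.85 (95% interval −0.91 to −0.79, edgeR, adjusted p = 5.94e-12). An exact permutation test over libraries gave p = 0.1 (two-sided), the smallest p that 3 libraries against 3 allow. CCND1 was already known as the largest change among these genes when they were chosen. Ordered from the strongest fall, it was gene 102 of the 267 DEGs lower in si_GRB2. LTO1, a gene on the opposite strand, shares 497 exonic bases with CCND1 and had reads equal to 13.1% of its own. LTO1 also fell, from 31.4 ± 3.44 to 25.4 ± 1.97 CPM (SD, n = 3 each, edgeR, adjusted p = 0.0037). Whether the counting used strand is not given in the sources used here.

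CCND3 encodes cyclin D3, a paralog that binds the same kinases (chr6:41934934-42050357, minus strand, ENSG00000112576.13). It had 103 CPM in each of the 3 si_NC libraries after rounding, and 102, 102 and 98.9 CPM with si_GRB2. The gap between the groups was 0.38 CPM, less than the SD of 1.76 CPM in si_GRB2. The log2 fold change was −0.031 with a 95% interval from −0.10 to 0.04 (edgeR, adjusted p = 0.531), so a change of the size seen for CCND1 lies outside its interval. In the authors' FPKM, which divide by gene length and are used here for levels of different genes, CCND3 had a mean of 14.4 ± 0.522 in si_NC and 14.5 ± 0.454 in si_GRB2 (SD, n = 3 each). The sign of this small difference thus depended on the scale. The median log2 fold change of all tested genes was 0.0019 with TMM, 0.0237 on log2(FPKM + 1) and 0.0425 on log2(FPKM + 0.1).

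The balance of the D-type cyclins shifted with these values. CCND1 made up 76.4%, 76.4% and 76.8% of the summed FPKM of CCND1 and CCND3 in the si_NC libraries and 65.1%, 64.9% and 64.7% in the si_GRB2 libraries. The si_GRB2 libraries were lower by 11.6 percentage points on average, and the groups did not overlap (p = 0.1 by the two-sided exact permutation test, the lowest it can give). The summed level was 59.2, 60.1 and 64.4 FPKM in si_NC and 40.5, 42.8 and 40.7 FPKM in si_GRB2. CCND2 was not part of these sums. In all, 9 shares, sums and ratios of FPKM were compared, 4 of them planned and 5 chosen after the values were seen, and the exact p of 0.1 became 0.113 after Benjamini-Hochberg adjustment over the 9.

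CDK4 and CDK6 encode the kinases that cyclin D activates. CDK4 (chr12:57747727-57756013, minus strand, ENSG00000135446.17) measured 162, 164 and 166 CPM with si_NC and 159, 148 and 151 CPM with si_GRB2. Every si_GRB2 library was lower, by as little as 2.33 CPM. The log2 fold change of CDK4 was −0.10 (95% interval −0.17 to −0.03) and did not pass (edgeR, adjusted p = 0.0242). Without si_GRB2 replicate 1, CDK4 passed, with a log2 fold change of −0.13 (edgeR, adjusted p = 0.00771). TSPAN31 lies on the opposite strand and shares 1369 exonic bases with CDK4, with reads equal to 25.5% of its own and a log2 fold change of 0.19 (edgeR, adjusted p = 0.0717).

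CDK6 (chr7:92604921-92836573, minus strand, ENSG00000105810.10) measured 31.9, 34.0 and 33.3 CPM with si_NC and 38.6, 37.8 and 40.8 CPM with si_GRB2. All si_GRB2 libraries were higher. The mean rose from 33.1 ± 1.05 to 39.1 ± 1.57 CPM (SD, n = 3 each), by 18.1%, with a log2 fold change of 0.24 (SE 0.05, edgeR, adjusted p = 0.00095). Per length, CDK6 was far below CDK4, with a mean of 2.17 FPKM against 42.6 in si_NC. The share of CDK4 in the summed FPKM of both kinases was 95.2%, 95% and 95.2% in si_NC and 94.2%, 94.0% and 93.6% in si_GRB2. With limma on log2(FPKM + 1), the change of CDK6 kept its direction but did not pass (log2 difference 0.20, adjusted p = 0.0496).

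CCNE1 and CCNE2 encode the E-type cyclins, which activate CDK2. CCNE1 (chr19:29811991-29824312, plus strand, ENSG00000105173.14) measured 58.0, 58.1 and 61.0 CPM with si_NC and 63.0, 62.3 and 59.6 CPM with si_GRB2. It was the only gene of the 9 whose groups overlapped, with a log2 fold change of 0.062 (95% interval −0.02 to 0.15, edgeR, adjusted p = 0.282). CCNE2 (chr8:94879770-94896678, minus strand, ENSG00000175305.18) measured 13.4, 13.9 and 12.6 CPM with si_NC and 11.1, 11.6 and 12.4 CPM with si_GRB2. The groups were apart by 0.181 CPM only. The log2 fold change of CCNE2 was −0.19 (95% interval −0.35 to −0.02, edgeR, adjusted p = 0.0781). INTS8 on the opposite strand shares 1629 exonic bases with CCNE2 and had reads equal to 70.1% of its own, so the value of CCNE2 is uncertain. CCNE1 made up 88.8% ± 0.779 of the summed E-type FPKM in si_NC and 90.4% ± 0.759 in si_GRB2 (SD, n = 3 each), and the groups overlapped (exact permutation test, two-sided p = 0.2). Relative to the E-type cyclins, the summed D-type FPKM was 2.85, 2.82 and 2.79 times as high in si_NC and 1.80, 1.81 and 1.80 times as high in si_GRB2.

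Of the inhibitors, CDKN1A fell while CDKN1B rose. CDKN1A encodes p21 (chr6:36676460-36687337, plus strand, ENSG00000124762.14). It had 518, 417 and 460 reads in the si_NC libraries and 251, 289 and 268 reads in the si_GRB2 libraries, which is 18.5, 16.4 and 16.4 CPM against 9.97, 10.5 and 10.6 CPM. No si_GRB2 library reached within 5.77 CPM of the lowest si_NC library. The mean of CDKN1A fell by 39.3%, with a log2 fold change of −0.72 (SE 0.07, edgeR, adjusted p = 1.88e-06). The 95% interval of its fold change, 0.544 to 0.677, extends just past the inverse of 1.5-fold. Without si_NC replicate 1, the highest library, the log2 fold change was −0.67. With limma on log2(FPKM + 1), CDKN1A still fell but was no longer a DEG, at −0.53 on that scale. On log2(FPKM + 0.1) it was at −0.66 and was a DEG (limma, adjusted p = 0.000905).

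CDKN1B encodes p27 (chr12:12685498-12722369, plus strand, ENSG00000111276.12). It measured 57.2, 58.3 and 57.4 CPM with si_NC and 64.8, 64.6 and 66.6 CPM with si_GRB2. The groups were apart by 6.26 CPM, while the SD was 0.58 and 1.11 CPM. The mean rose by 13.3%, with a log2 fold change of 0.18 (95% interval 0.10 to 0.26, edgeR, adjusted p = 0.00134). With limma on log2(FPKM + 1), CDKN1B kept its direction but did not pass (log2 difference 0.19, adjusted p = 0.0354).

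CDKN2C encodes p18, which binds CDK4 and CDK6 directly (chr1:50960745-50974634, plus strand, ENSG00000123080.12). It measured 62.9, 61.0 and 62.4 CPM with si_NC and 57.3, 58.3 and 54.5 CPM with si_GRB2. The si_GRB2 libraries were lower by at least 2.67 CPM, with a log2 fold change of −0.13 (95% interval −0.22 to −0.05) that did not pass (edgeR, adjusted p = 0.0191).

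**Figure D2:**
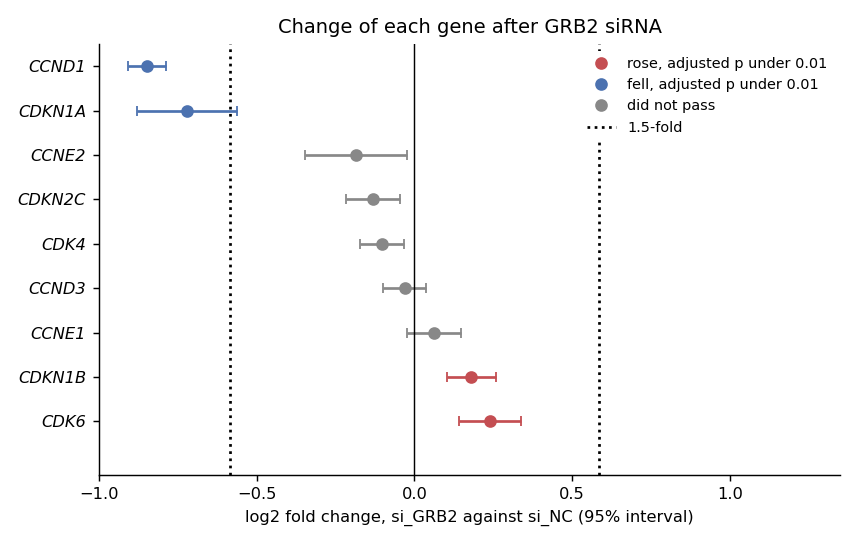
Log2 fold change of si_GRB2 against si_NC (x axis) for the 9 genes, with 95% intervals from edgeR and dotted lines at 1.5-fold. CCND1 (−0.85) lies wholly beyond the line and the interval of CDKN1A (−0.72) crosses it, while CDKN1B (0.18) and CDK6 (0.24) lie on the other side of 0.

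Levels of different genes were set in order by FPKM. In si_NC the order by mean FPKM was CCND1 (46.9), CDK4 (42.6), CCNE1 (19.3), CDKN2C (16.5), CCND3 (14.4), CDKN1B (5), CDKN1A (4.57), CCNE2 (2.43) and CDK6 (2.17). No neighbours in that order overlapped between their libraries. In si_GRB2, CDK4 came first with 40.9 FPKM and CCND1 second with 26.8, and CDKN1A fell to 2.86, where its libraries overlapped those of CDK6 at 2.64. The ratio of CCND1 to CDK4 in FPKM was 1.11, 1.09 and 1.10 in the si_NC libraries and 0.639, 0.685 and 0.646 in the si_GRB2 libraries. In FPKM, CCND1 was thus above CDK4 in every si_NC library and below it in every si_GRB2 library. Not divided by length, the 2 genes overlapped in si_GRB2. CCND1 had 156, 156 and 150 CPM there, and CDK4 had 159, 148 and 151 CPM. The order of different genes thus depends on the lengths used, and other lengths were not tested.

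**Figure D3:**
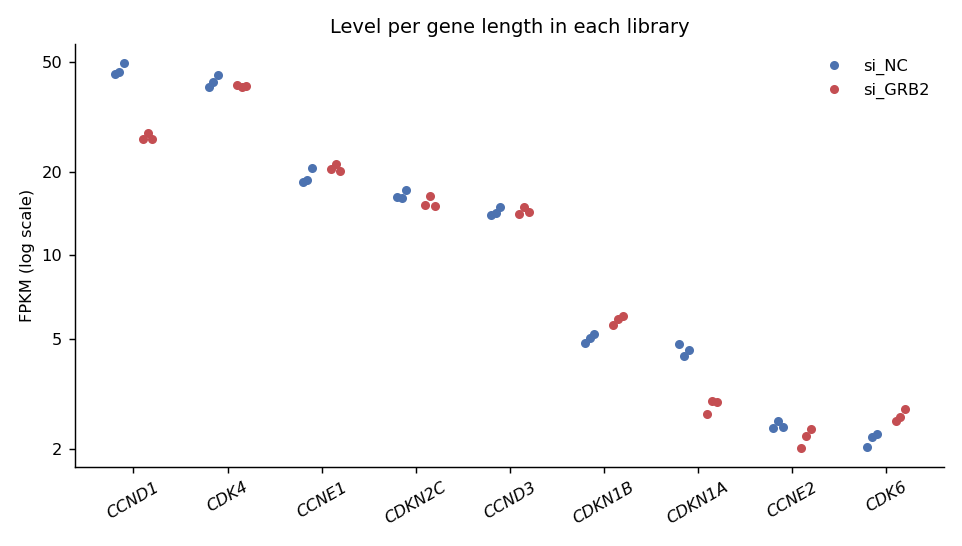
FPKM of the 9 genes (y axis, log scale) in each library, si_NC in blue and si_GRB2 in red, ordered by the si_NC mean. CCND1 drops from 46.9 to 26.8 FPKM, below CDK4, and CDKN1A drops from 4.57 to 2.86 FPKM.

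Within the Cip/Kip inhibitors, CDKN1A and CDKN1B were nearly level in si_NC in FPKM only, with a ratio of 0.996, 0.866 and 0.882. The ratio was 0.475, 0.503 and 0.490 in si_GRB2. Not divided by length, CDKN1A stood well below CDKN1B in si_NC, with a mean of 17.1 CPM against 57.6 CPM. Their summed level was 9.57 ± 0.204 FPKM in si_NC and 8.71 ± 0.367 FPKM in si_GRB2 (SD, n = 3 each). D-type cyclins stood at 6.15, 6.43 and 6.61 times the summed level of both inhibitors in si_NC and at 4.88, 4.82 and 4.54 times in si_GRB2. All 3 si_GRB2 libraries were lower (p = 0.1 by the two-sided exact permutation test, the lowest it can give). The size of the ratios between different genes, here and above, depends on the lengths used, and other lengths were not tested.

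**Figure D4:**
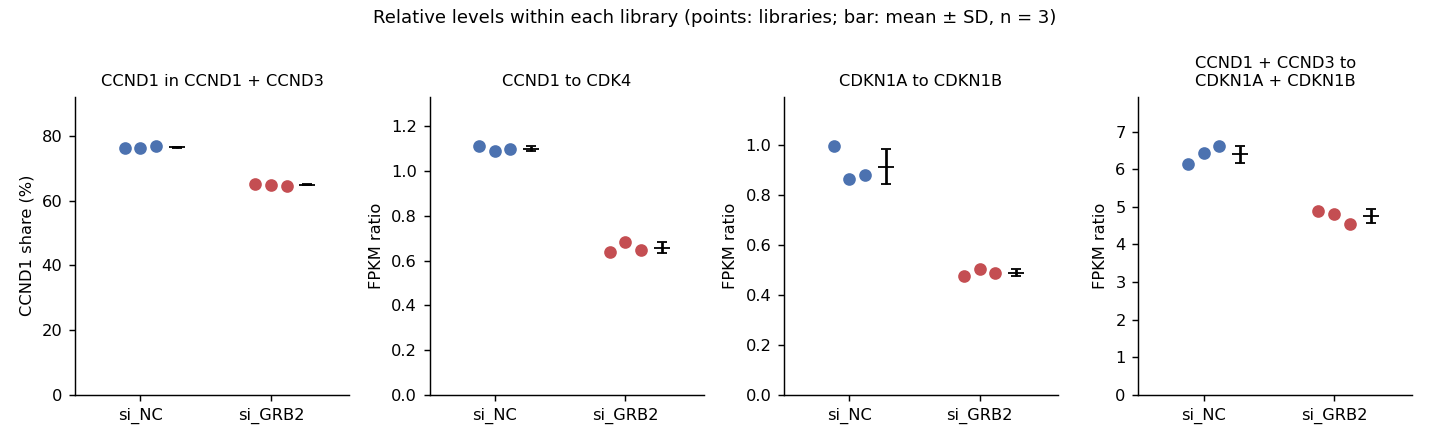
Share of CCND1 in the summed FPKM of CCND1 and CCND3 (percent) and 3 FPKM ratios (y axes, from 0) in each library, with mean and SD. All 4 values are lower in every si_GRB2 library, with the ratio of CDKN1A to CDKN1B at 0.915 ± 0.0707 in si_NC and 0.490 ± 0.0142 in si_GRB2 (SD, n = 3 each).

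The promoters of the genes that passed are shown because CDKN1A and CDKN1B, inhibitors of the same family, moved in opposite directions. Promoter entries of RefSeq (GRCh38.p14) were matched by symbol for 7 of the 10 genes, and CCND1, CCND2 and CCNE2 had no entry. The 250 bases before the start that matches the main transcript of GENCODE 44 are printed 5′ to 3′ on the strand of the gene. They are chr6:36678464-36678713 (plus) for CDKN1A, chr12:12717118-12717367 (plus) for CDKN1B and chr7:92836574-92836823 (minus) for CDK6. Capitals mark matches, on either strand, to GGGCGG (SP1) or CCAAT (NF-Y).
CDKN1A: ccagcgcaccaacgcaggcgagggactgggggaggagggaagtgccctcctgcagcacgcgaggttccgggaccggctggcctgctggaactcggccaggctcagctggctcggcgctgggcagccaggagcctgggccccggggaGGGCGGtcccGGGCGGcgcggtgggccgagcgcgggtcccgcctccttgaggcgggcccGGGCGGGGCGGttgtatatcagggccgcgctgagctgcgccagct
CDKN1B: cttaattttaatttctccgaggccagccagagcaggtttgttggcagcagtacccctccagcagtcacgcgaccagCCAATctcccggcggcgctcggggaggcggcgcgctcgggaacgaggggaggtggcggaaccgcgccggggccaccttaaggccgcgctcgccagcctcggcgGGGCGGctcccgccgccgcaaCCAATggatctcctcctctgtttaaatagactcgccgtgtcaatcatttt
CDK6: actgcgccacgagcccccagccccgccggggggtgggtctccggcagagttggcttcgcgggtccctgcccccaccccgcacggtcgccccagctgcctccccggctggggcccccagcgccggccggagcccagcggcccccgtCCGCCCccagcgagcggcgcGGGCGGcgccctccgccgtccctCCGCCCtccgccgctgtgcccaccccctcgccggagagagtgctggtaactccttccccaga
CDKN1A held 4 matches to the SP1 letters, of which the last 2 overlap, CDK6 held 3 and CDKN1B held 1. CDKN1B also held 2 matches to the NF-Y letters, which the other promoters printed here did not hold. Of all 35116 promoter entries of the same length, 42.6% held the SP1 letters and 32.0% the NF-Y letters. The other letters searched had no match in these 3 windows. They were TTTCCCGC or TTTGGCGC for E2F factors, which 1.93% of all entries held. For AP-1 they were TGANTCA, which 6.57% of all entries held. For MYC they were those of the E-box CACGTG, held by 6.34% of all entries. For the TATA box they were TATAAA, held by 10.7% of all entries. For FOXO factors they were TGTTTAC, held by 2.98% of all entries. Among the other 4 promoters, CDK4 held 3 matches to CACGTG and CDKN2C held 1, CCNE1 held 7 matches to the SP1 letters, and CCND3 and CDKN2C, which did not pass, held 1 match each to the NF-Y letters.

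The genes whose profile over the 6 libraries was most like that of CCND1 were TIMM8B, RAP2B and ZNF622. Likeness was the root mean square distance between log2 CPM centred on each gene's own mean, over 7228 genes with a mean of at least 20 CPM. The distance was 0.0263 for TIMM8B, 0.0283 for RAP2B and 0.0368 for ZNF622. TIMM8B, for example, measured 105, 105 and 108 CPM with si_NC and 62.1, 59.1 and 59.3 CPM with si_GRB2. All 3 were lower in every si_GRB2 library, and the 6 libraries fall into 2 groups, which the profiles share.

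A further 59 genes of G1 and S phase entry were described as the surroundings of these genes, of which 58 had enough reads to test. Of these 58, 15 fell (25.9%) and 3 rose (5.17%), against 10.5% and 9.96% of all tested genes. The median log2 fold change was −0.032 in the list and 0.0019 over all tested genes. The log2 fold changes of those that passed ran from −0.41 to 0.49, all short of the 1.5-fold limit. S phase genes that E2F factors activate accounted for 7 of the 15 falls. With limma on log2(FPKM + 1), 2 genes of the list fell and 1 rose.

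Of the 9 E2F target genes of S phase, 7 fell (77.8%, against 10.5% of all tested genes) and the other 2 did not pass, with a median log2 fold change of −0.23. CDT1, a loader of the replicative helicase, fell from 34.9 ± 1.73 to 26.6 ± 1.58 CPM (SD, n = 3 each), the largest change of this group (log2 fold change −0.39, edgeR, adjusted p = 4.75e-05). RRM1, the large subunit of ribonucleotide reductase, had the smallest change among those that passed, from 152 ± 3.41 to 135 ± 5.16 CPM (log2 fold change −0.17, edgeR, adjusted p = 0.00126). With limma on log2(FPKM + 1), CDT1 and RRM1 kept their direction but did not pass (adjusted p = 0.0139 and 0.126). PCNA, the sliding clamp of DNA polymerase, was singled out after its values were seen, for its many reads (58220 over all libraries). PCNA measured 408, 408 and 395 CPM with si_NC and 318, 321 and 335 CPM with si_GRB2 (log2 fold change −0.31, edgeR, adjusted p = 4.16e-07). CDC6 and TK1, also chosen later, had more reads (75078 and 64365). CDC6 fell (log2 fold change −0.26, edgeR, adjusted p = 1.05e-06). TK1 did not pass (−0.017, edgeR, adjusted p = 0.747). The groups did not overlap, with si_GRB2 lower, for 7 of these 9 genes and for 21.2% of all tested genes.

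Of 13 pocket proteins and E2F factors, 1 fell (7.69%, against 10.5% of all tested genes) and 12 did not pass. The median log2 fold change of the group was 0.044. The gene that fell was E2F2, an activating E2F, from 28.2 ± 0.752 to 23.8 ± 0.385 CPM (SD, n = 3 each, log2 fold change −0.24, edgeR, adjusted p = 0.00117). RB1, the substrate of cyclin D kinases (chosen after its values were seen), had a log2 fold change of −0.02 (edgeR, adjusted p = 0.826).

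Of the 8 genes of CDK2, cyclin A2 and CDK activation, 2 fell (25.0%, against 10.5% of all tested genes) and 6 did not pass. The median log2 fold change of the group was −0.036. CDK2, the partner of cyclin E, measured 56.1, 55.5 and 57.1 CPM with si_NC and 47.0, 48.4 and 48.8 CPM with si_GRB2 (log2 fold change −0.23, edgeR, adjusted p = 0.00031). CDC37, a cochaperone that delivers kinases such as CDK4 to HSP90, fell from 167 ± 2.73 to 153 ± 2.97 CPM (SD, n = 3 each, log2 fold change −0.13, edgeR, adjusted p = 0.00254). CDC37 did not pass without si_NC replicate 2 (edgeR, adjusted p = 0.0123) or without si_GRB2 replicate 3 (edgeR, adjusted p = 0.015).

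Among the other CDK inhibitors, CDKN2A fell, CDKN2D rose and 1 of the 3 tested did not pass. That is 33.3% each way, against 10.5% of all tested genes that fell and 9.96% that rose. CDKN2A, which encodes p16 and ARF, measured 36.3, 34.4 and 36.3 CPM with si_NC and 28.4, 28.5 and 25.7 CPM with si_GRB2 (log2 fold change −0.37, edgeR, adjusted p = 4.01e-05). CDKN2D, which encodes p19 of the INK4 family, measured 6.38, 6.94 and 6.92 CPM with si_NC and 10.2, 9.10 and 9.20 CPM with si_GRB2 (log2 fold change 0.49, edgeR, adjusted p = 0.000796). CDKN1C had 9 reads over all libraries and was not tested.

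Of 13 genes of the ubiquitin ligases that degrade G1 cyclins and inhibitors, 1 fell (7.69%, against 10.5% of all tested genes). The other 12 did not pass, and the median log2 fold change of the group was −0.070. CKS1B, the cofactor with which SKP2 recognises p27, fell from 116 ± 2.33 to 94.5 ± 3.91 CPM (SD, n = 3 each, log2 fold change −0.30, edgeR, adjusted p = 1.22e-05). MuvB and DREAM subunits, of which 6 were tested, switch cell-cycle genes between repression and activation. Of these, MYBL2 fell (log2 fold change −0.12, edgeR, adjusted p = 0.00203) and RBBP4 rose (0.16, edgeR, adjusted p = 0.00404). That is 16.7% each way, against 10.5% of all tested genes that fell and 9.96% that rose. The other 4 did not pass, and the median of the group was 0.073. MYBL2 did not pass without si_GRB2 replicate 3 (edgeR, adjusted p = 0.0122). RBBP4 did not pass without si_NC replicate 2, si_GRB2 replicate 2 or si_GRB2 replicate 3 (edgeR, adjusted p = 0.0376, 0.0219 and 0.026).

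Of the regulators of CDKN1A and CDKN1B in the list, MDM2 rose and FOXO1 fell, and the median log2 fold change of the group was −0.12, the second lowest of the 7 groups. MDM2, a ubiquitin ligase, measured 68.0, 67.7 and 64.4 CPM with si_NC and 74.7, 76.3 and 80.2 CPM with si_GRB2 (log2 fold change 0.21, edgeR, adjusted p = 0.00077). FOXO1, a factor known to activate CDKN1B, fell from 14.0 ± 1.74 to 10.6 ± 0.667 CPM (SD, n = 3 each, log2 fold change −0.41, edgeR, adjusted p = 0.00264). FOXO1 did not pass without si_NC replicate 1, si_GRB2 replicate 1 or si_GRB2 replicate 2 (edgeR, adjusted p = 0.0136, 0.0167 and 0.0141).

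**Figure D5:**
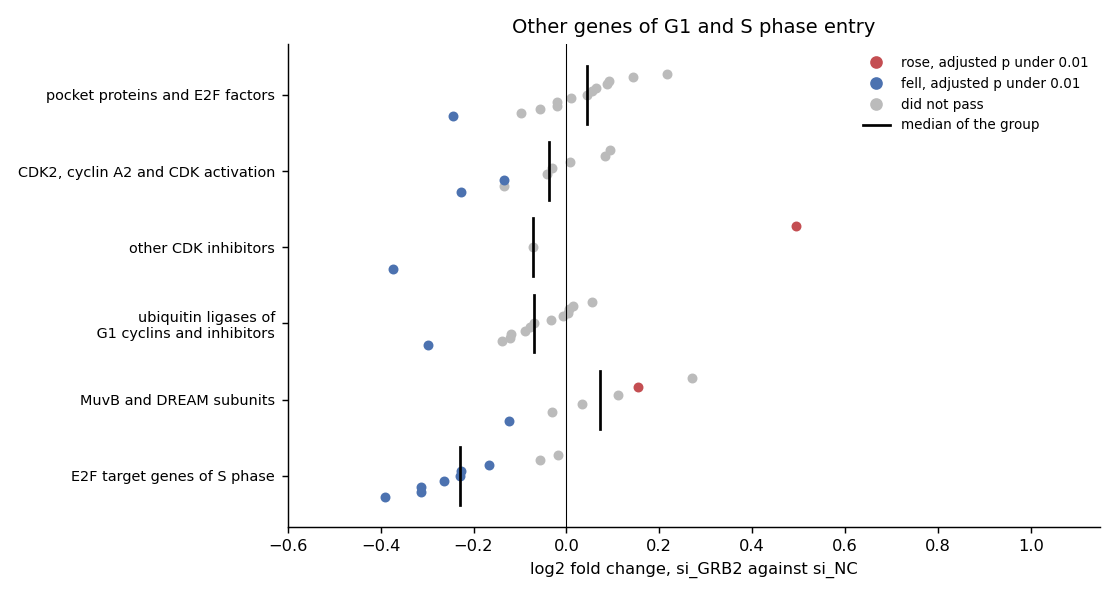
Log2 fold change of si_GRB2 against si_NC (x axis) for the tested genes of 6 groups of the list (rows), coloured by the result of the edgeR test, with the median of each group as a bar. The E2F target genes of S phase lie to the left, with a median of −0.23, while the medians of the other groups shown lie between −0.072 and 0.073. A group that is not drawn, the regulators of CDKN1A and CDKN1B, had a median of −0.12.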

How the data were processed

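RNA-seq of 6 SK-BR-3 libraries was used, 3 si_NC and 3 si_GRB2, grouped by the descriptions of the samples. The genes described and all lists were chosen with earlier results of these data known. The authors trimmed reads with FASTX-Toolkit, aligned them to GRCh38 with HISAT2 and deposited the count of uniquely mapped reads per gene, without normalization. The authors also deposited FPKM to 2 decimals. The counting tool, its strand setting, the annotation and the total behind FPKM are not given in the sources used here. A gene that shares exonic bases with its neighbour can hold some of its reads.

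Counts were analysed with edgeR 4.0.16 in R 4.3.3. TMM factors were computed, filterByExpr kept 15801 of 30327 genes, and groups were compared by glmQLFit and glmQLFTest with no covariate and Benjamini-Hochberg adjustment. The fit was tested on simulated data, where genes under 5 CPM were recovered less often. The pass limit of that test was restricted to genes of at least 5 CPM after this was seen. Reads on genes came to 24810378 to 28532480 per library, and genes with few reads have wider intervals. Each standard error is the log2 fold change over the root of F, and intervals cover 95%. Exact permutation tests were two-sided. Positions and exon lengths came from GENCODE 44, where 99.7% of the gene identifiers were found, and promoters from RefSeq. Alternatives were DESeq2 1.42.0, its size factors, other count filters, an adjusted p under 0.05, a replicate block and each library left out. Others were limma 3.58.1 on log2(FPKM + 1) or log2(FPKM + 0.1) of the 15800 tested genes with FPKM. For the planned shares and ratio, CPM over exon lengths of GENCODE 44 replaced the authors' FPKM. These gave nearly the same values as the FPKM, so other transcript lengths were not tested.

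The named genes are GRB2, the 10 genes, any DEG of the 59-gene list (0 were found), the genes with the lowest and the highest log2 fold change among those that passed in each group of that list, and the 3 genes most like CCND1. Other genes of the list are said to be chosen later, and neighbours on the opposite strand and marker genes are named beside the results they touch. The result of 1 gene of the list is not reported here.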

Additional observations from a re-analysis of the deposited data

How the results depend on the processing

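Under all 14 alternatives GRB2 (log2 fold change −2.18 to −1.91), CCND1 (−0.86 to −0.78) and CDKN1A (−0.76 to −0.53) fell and passed. In 126 refits of the 9 genes, 117 kept direction and side, 4 lost the call, 3 gained it and 2 changed sign. The sign changes were those of CCND3, which did not pass, at 0.0117 with limma on log2(FPKM + 1) and 0.0124 on log2(FPKM + 0.1). Both limma settings passed no gene of the 9 that rose (0 against 2), where CDK6 and CDKN1B had adjusted p from 0.0328 to 0.0496, which limma would pass at 0.05. With limma on log2(FPKM + 1), 955 genes passed and 95 were DEGs, and with 0.1 added 966 and 261, against 3236 and 398 in the counts. Of the 59-gene list, 2 and 3 genes fell and 1 rose under each of these settings. The cause was not tested. An adjusted p under 0.05, looser by construction, let 4 of the 9 genes fall (CDK4 and CDKN2C in addition). Of the list, 20 fell and 6 rose at that limit. Of all 15801 tested genes, 2442 fell and 2396 rose there. DESeq2 called CCND1, CDKN1A, CDK6 and CDKN1B, the same 4 of the 9 genes as the main fit. Leaving out single libraries gave 2 rises and 2 to 3 falls among the 9 genes, 2 to 4 rises and 13 to 16 falls in the list, 321 to 420 DEGs and 2307 to 2922 genes past the test. Differences between the groups in the 3 planned shares and the planned ratio moved by less than the larger of the SDs of both groups under all 7 alternatives. Among these, the exon lengths of GENCODE 44 gave nearly the main values (−11.6 against −11.6 points for the CCND1 share). That setting was thus no test of other lengths. The difference in the CDK4 share, −1.23 points, ranged from −1.38 to −1.06, a move larger than its SD in si_NC (0.111) and smaller than that in si_GRB2 (0.315). The 5 added ones were not recomputed. Of 168 refits of the 12 named genes of the list, 29 lost the call and 0 changed sign. Only CKS1B and CDKN2D of these 12 kept the call under both limma settings.

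Nothing says that same-numbered libraries were paired. The correlations of their deviations from the group means were 0.232, −0.0948 and 0.0804. Those of differently numbered libraries ran from −0.282 to 0.228, so these values do not decide whether a pairing existed. A replicate block gave 459 DEGs and called the same 4 of the 9 genes. Genes with few reads, CCNE2 and CDKN1A here, have the widest intervals.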
